A study of Mus musculus with 8 samples.

Results

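The genes of the IL-6, IL-10 and IL-12 cytokine families were followed in bone marrow-derived macrophages (BMDM) that had or had not been co-cultured with apoptotic cells before an inflammatory stimulus. The set holds 10 of the 55359 genes listed, chosen by name: Il6, Lif and Osm of the IL-6 family, Il10 and the receptor chain Il10ra, and the IL-12 family subunits Il12a, Il12b, Il23a, Il27 and Ebi3. All 10 were found by their Ensembl identifiers in the mouse annotation (GRCm39). All 10 passed the filter of a mean of at least 10 normalized counts that left 16309 genes to test. Il10, Il12a and Il23a had means below 10 in Ctrl and in Eff, so that they passed only through their stimulated groups. The BMDM came from male and female adult C57BL/6 wildtype mice and were differentiated with M-CSF and GM-CSF, the latter being a factor that also drives dendritic cell-like differentiation of marrow cells. There were 4 groups of 2 libraries each. Naïve cells were left without stimulus (Ctrl) or received LPS at 100 ng/mL with IFNγ at 100 U/mL for 6 h (LPS). Efferocytic cells were first co-cultured for 16 h with 5 apoptotic cells per macrophage, washed, and then left without stimulus (Eff) or given the same LPS with IFNγ for 6 h (LPSEff). The apoptotic cells were fibroblasts of the mouse line NIH-3T3 CA, a clone that carries an inducible caspase-8 and dies when a dimerizer is added. The dimerizer stayed present during the co-culture, and the methods do not say whether naïve cells received it. CD45+ cells were purified on magnetic columns after the treatments, so that fibroblast remnants were to be removed. Neither the labels nor the methods say whether the libraries of a group came from separate animals or cultures, so that the p-values measure the spread between these libraries, which may be technical.

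Cytokines of these families signal through paired receptor chains, Janus kinases and STAT proteins. IL-6, LIF and OSM share the chain gp130 (Il6st) and act mainly through STAT3. The IL-12 family is built from an alpha and a beta chain. In it, p35 (Il12a) and p40 (Il12b) form IL-12, p19 (Il23a) and p40 form IL-23, and p28 (Il27) and EBI3 form IL-27. Secretion of any of these pairs needs both of its genes in a cell. IL-12 drives interferon production by T and NK cells and IL-23 maintains Th17 cells, whereas IL-10 restrains macrophages through IL-10RA, IL-10RB and STAT3, and its production is a known trait of macrophages that have engulfed dying cells. LPS acts through TLR4 and NF-κB, and LPS and IFNγ are both textbook inducers of IL-12.

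The depth was between 3481288 and 12020918 recovered reads per library, so that a count of 3 reads corresponds to between 1.73 and 5.71 normalized counts. The 12 macrophage markers were all detected, with a summed level between 115125 and 170880 normalized counts, and the 6 lymphocyte markers summed to at most 20.7. The 15 fibroblast markers summed to 569 to 603 in Ctrl and 2395 to 4588 in LPS, and to 2004 to 4106 in Eff and 6084 to 7146 in LPSEff, with each marker above 3 reads in at least 1 library. In the Eff contrasts, 6 of the 14 fibroblast markers tested were called higher in each, Col1a1 and Pdgfra among them, and 10 and 8 with the replicate block described below. Their estimates lay above 0 for 12 and below 0 for 2 in Eff against Ctrl, and for 11 and 3 in LPSEff against LPS. In the latter, 1 marker was lower in both LPSEff libraries than in both LPS libraries. The 8 neutrophil markers summed to 723 to 1118 in Ctrl and 1865 to 2213 in LPS, and to 1143 to 1618 in Eff and 1868 to 2647 in LPSEff. S100a8 was the only one of the 6 tested that limma called in Eff against Ctrl, at 308 and 269 normalized counts in Ctrl and 665 and 699 in Eff (adjusted p = 0.0402). DESeq2 called S100a8 there too, and edgeR did not. In LPSEff against LPS it was called higher by limma with the block and by DESeq2 without it. The part of fibroblast and neutrophil RNA in the efferocytic values of the cytokine genes was not tested. In bulk RNA, fewer cells of a type and less RNA per cell cannot be told apart.

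The sequence before the start site is shown for Il6, the member with the largest fitted rise, and for Il12b and Ebi3, the beta chains of the IL-12 family, since these genes moved together with the stimulus but by very different amounts. The sequences are the 250 bases before the RefSeq start in GRCm38.p6, a different build from that of the expression data. Of the members, 5 were in the promoter table (Il6, Il12a, Il12b, Ebi3 and Lif), and Il10, Il23a, Il27, Osm and Il10ra were not. Capitals mark matches to the motifs searched on both strands, which were the 10-base NF-κB consensus, the C/EBP motif TTNNGNAA, the AP-1 motif TGANTCA, the cyclic AMP element TGACGTCA, the STAT motif TTCNNNGAA, the 10-base interferon-stimulated response element and the TATA box TATAAA.
Il6 (chr5:30012864-30013113, plus strand): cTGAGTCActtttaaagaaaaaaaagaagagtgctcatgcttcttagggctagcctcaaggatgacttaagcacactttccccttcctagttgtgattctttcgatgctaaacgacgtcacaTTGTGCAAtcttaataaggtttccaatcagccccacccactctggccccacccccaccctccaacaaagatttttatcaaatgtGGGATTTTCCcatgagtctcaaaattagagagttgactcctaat
Il12b (chr11:44399813-44400062, plus strand): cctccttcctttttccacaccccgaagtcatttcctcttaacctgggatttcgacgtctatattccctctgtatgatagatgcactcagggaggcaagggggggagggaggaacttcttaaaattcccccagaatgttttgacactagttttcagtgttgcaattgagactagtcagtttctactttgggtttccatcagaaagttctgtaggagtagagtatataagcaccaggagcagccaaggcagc
Ebi3 (chr17:55952373-55952622, plus strand): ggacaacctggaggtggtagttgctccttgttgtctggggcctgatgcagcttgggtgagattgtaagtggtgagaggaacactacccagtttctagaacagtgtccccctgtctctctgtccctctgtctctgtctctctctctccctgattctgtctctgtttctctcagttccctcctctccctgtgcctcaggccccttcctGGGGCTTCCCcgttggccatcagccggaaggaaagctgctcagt

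The Il6 window held an AP-1 match beginning 249 bases before the start, a C/EBP match beginning at 128 bases and an NF-κB match beginning at 44 bases. The Ebi3 window held an NF-κB match, also beginning 44 bases before the start. Lif held an AP-1 match at 228 bases and an NF-κB match at 178 bases. The NF-κB consensus was present in 7.25% of 32851 windows of this length, the C/EBP motif in 36.9% and the AP-1 motif in 6.75%. None of the 7 motifs was found in the Il12b window or in either of the 2 Il12a windows, which says only that these letters are not there. No interferon-stimulated element (2.98% of windows), STAT motif (7.02%), cyclic AMP element (1.55%) or TATA box (12.4%) was found in any of the 6 member windows.

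In naïve resting BMDM, the receptor chain and OSM were the most abundant members, and most cytokine transcripts were scarce. Levels were compared between genes as normalized counts per kb of exon. Il10ra stood first with 283 per kb on average (266 to 299), Osm second with 162 (122 to 201) and Il12b next with 52.9 (40.3 to 65.6), which overlapped Ebi3 at 42.8 (41.5 to 44.0). Il27 was at 24.9 per kb, Lif at 8.04 and Il6 at 5.57, the last pair overlapping, and Il23a was at 2.39. Il10 was covered by 1 read in Ctrl 1 and 0 reads in Ctrl 2, and Il12a by 0 reads in both, which allows up to 5.71 and 1.73 normalized counts in these libraries. Stimulation reordered the list, and in LPS the per-kb levels ran from Il12b (8985, 7279 to 10690) through Il6 (3845), Il27 (1506), Il10ra (827), Osm (732) and Ebi3 (236) down to Il12a (117), Lif (98.6), Il23a (82.6) and Il10 (21.1, 7.75 to 34.5). Il10ra and Osm, Il12a and Lif, and Lif and Il23a did not separate there. In LPSEff, Il12b and Il6 led again and overlapped at 3699 and 2629 per kb, and Il10 had a mean of 111 (56.1 to 167), a range that holds both Lif libraries (96.4 to 113) and overlaps that of Il23a (51.4 to 94.3). Il12a had the lowest mean there, with 38.8 (30.4 to 47.2).

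**Figure D1:**
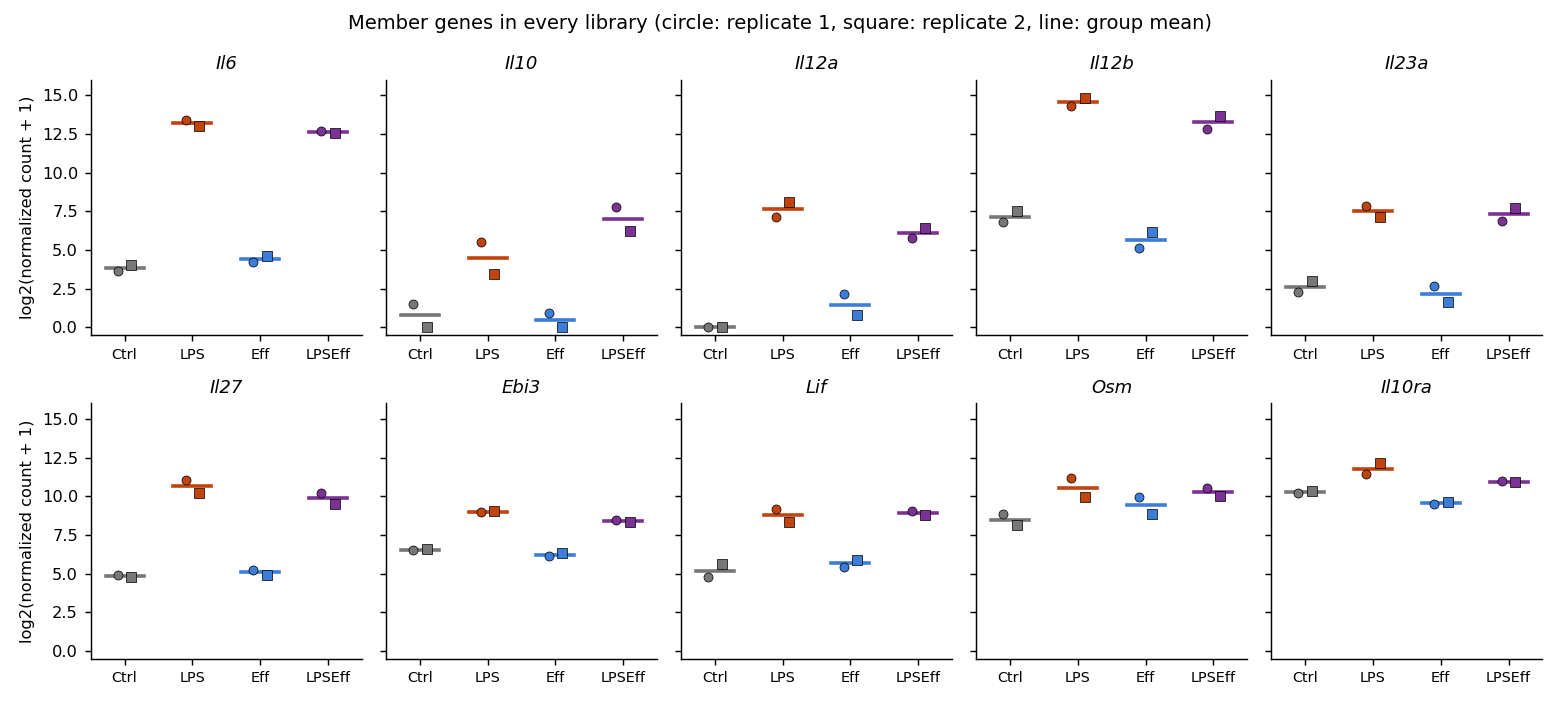
Level of each of the 10 genes in every library, as log2(normalized count + 1), with 2 libraries per group and a line at the mean of their log2 values. All 10 genes lie higher in both LPS libraries than in both Ctrl libraries, and Il10 is the gene whose LPSEff libraries both lie above its LPS libraries.

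LPS with IFNγ raised all 10 genes in naïve BMDM, with log2 fold changes between 1.51 and 9.33 and a median of 4.31. The median over all genes tested was -0.01, and 12.4% of them were called higher (limma, adjusted p under 0.05). Il10, Il12a and Il23a entered the test only through their stimulated groups. Their place in this count, and in that of efferocytic cells below, depended on the rise itself. With the libraries rescaled to equal totals, the 2015 genes called higher and 1895 called lower became 1407 and 4319, and the 10 members were still called higher. The log2 changes below are on the scale of log2(normalized count + 1), given with ± their standard error and adjusted p-values from limma.

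Il6, the prototype of its family and an inducer of the acute phase response, had the largest fitted rise. It was at 11.4 and 15.6 normalized counts in Ctrl 1 and 2, and at 10573 and 8099.7 in LPS 1 and 2. The groups did not overlap, and there was a log2 change of 9.33 ± 0.24 (adjusted p = 1.28e-06). Lif, which maintains stem cells and signals through LIFR and gp130, went from 26.7 and 47.4 to 587 and 321 normalized counts, with a log2 change of 3.57 ± 0.37 (adjusted p = 0.000468). Osm, the neighbouring gene and a close relative of Lif, was already present in Ctrl at 457 and 278 normalized counts and stood at 2349 and 977 in LPS. It had a log2 change of 2.09 ± 0.50 (adjusted p = 0.0184), and the LPS libraries differed from each other more than those of the other IL-6 family genes. Without Ctrl 2 the Osm change was 1.73 (adjusted p = 0.114), without LPS 1 it was 1.45 (adjusted p = 0.0866) and without LPS 2 it was 2.72 (adjusted p = 0.00984).

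Il12b, the beta chain shared by IL-12 and IL-23, reached the highest level of all members. It was at 110 and 180 normalized counts in Ctrl and at 19966 and 29324 in LPS, a log2 change of 7.41 ± 0.43 (adjusted p = 3.69e-05). Il12a, which encodes the chain specific to IL-12, had 0 reads in both Ctrl libraries and 138 and 278 normalized counts in LPS, at least 55.9-fold higher when each Ctrl library is set to 3 reads (adjusted p = 0.000146). Il23a, the chain specific to IL-23, went from 3.81 and 6.94 to 230 and 141 normalized counts, with a log2 change of 4.87 ± 0.52 (adjusted p = 0.000498). Per kb, both alpha chains stayed far below the common beta chain in the stimulated libraries.

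The chains of IL-27 rose by different amounts. Il27, encoding p28, was at 28.6 and 27.2 normalized counts in Ctrl and at 2166 and 1201 in LPS, a log2 change of 5.81 ± 0.34 (adjusted p = 3.73e-05). Ebi3 was at 89.5 and 94.8 in Ctrl and at 498 and 519 in LPS, with a log2 change of 2.45 ± 0.20 (adjusted p = 0.000137). Ebi3 was therefore the more abundant chain per kb in Ctrl, at 1.62 and 1.81 times Il27, and the scarcer in LPS, at 0.119 and 0.224 times. Exons of Ebi3, Il27 and Il12a share bases with Gm16712, Apobr and Gm66274 on the opposite strand, and the counting kept to the gene's strand by its default.

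Il10 and its receptor also rose in naïve cells, Il10 from a very low base. Il10 was covered by 35 and 10 reads in LPS (45.3 and 10.2 normalized counts) against 1 and 0 in Ctrl. The ratio of the summed reads, scaled for depth, was 57.7, with an exact 95% interval from 9.84 to 2329 that covers counting error only, and limma gave an adjusted p of 0.0220. This call was lost without Ctrl 2 (log2 fold change 2.97, adjusted p = 0.116), without LPS 1 (2.71, adjusted p = 0.127) and where only Ctrl and LPS entered the fit (3.74, adjusted p = 0.0527), while the change was 4.51 without Ctrl 1 and 4.76 without LPS 2. Il10ra, the ligand-binding chain, was at 1163 and 1308 normalized counts in Ctrl and at 2723 and 4511 in LPS, with a log2 change of 1.51 ± 0.24 (adjusted p = 0.00346).

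In efferocytic BMDM, the same stimulus raised 9 of the 10 genes, against 10.7% of all genes called higher, and the median change of the members was 4.70 on the log2 scale against 0.01 over all genes. The exception was Osm, at 1002 and 457 normalized counts in Eff and 1485 and 1057 in LPSEff, with a log2 change of 0.89 (95% interval -0.25 to 2.03, adjusted p = 0.264). With the replicate number as a block in the limma fit, Osm was called too (adjusted p = 0.00338), and 19.0% of all genes were called higher. Its LPSEff libraries nevertheless both lay above its Eff libraries. Il6 went from 17.5 and 24.0 to 6706 and 6060.0 normalized counts, with a log2 change of 8.21 ± 0.24 (adjusted p = 2.42e-06). Lif went from 42.1 and 58.6 to 521 and 444, with a log2 fold change of 3.25 (adjusted p = 0.000816).

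Of the IL-12 family, Il12b was at 33.3 and 69.2 normalized counts in Eff and at 7089 and 13201 in LPSEff, a log2 change of 7.62 ± 0.43 (adjusted p = 2.90e-05). Il12a went from 4 and 1 reads in Eff to 68 and 66 in LPSEff, a ratio of summed reads of 33.4 with an exact 95% counting interval from 14.0 to 105 (adjusted p = 0.00170). Its log2 fold change was 4.62, with 5.32 without Eff 1 and 3.92 without Eff 2. Il23a, at 5.26 and 2.12 normalized counts in Eff, reached 116 and 212 in LPSEff (log2 change 5.16 ± 0.52, adjusted p = 0.000387). Il27 went from 36.8 and 29.6 to 1202 and 716 (log2 fold change 4.77, adjusted p = 7.38e-05), and Ebi3 from 69.2 and 79.7 to 359 and 316 (2.17, adjusted p = 0.000231).

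For Il10, the estimate was larger in these cells than in naïve cells, although the interaction given below did not pass. Il10 was covered by 1 and 0 reads in Eff and by 276 and 58 reads in LPSEff, which are 219 and 73.6 normalized counts. The ratio of summed reads was 417, with an exact 95% counting interval from 74.3 to 16503, and limma gave an adjusted p of 0.00220. The log2 fold change was 6.55, with 5.77 without LPSEff 1 and 7.32 without LPSEff 2, and it was called in each case. Il10ra went from 719 and 793 to 1992 and 1957 normalized counts (log2 change 1.39 ± 0.24, adjusted p = 0.00595).

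**Figure D2:**
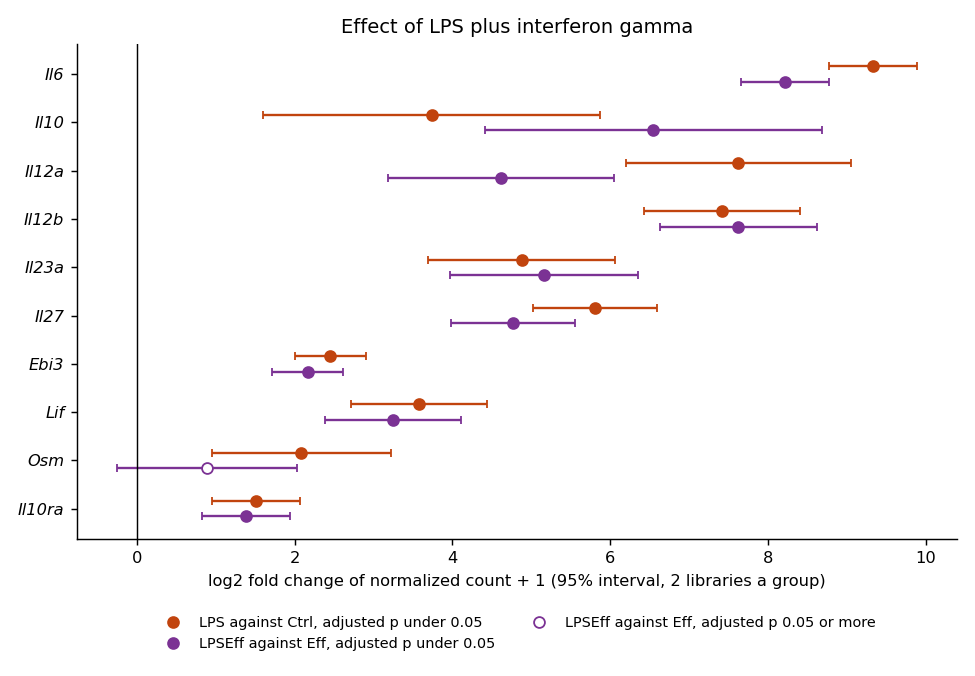
Change of each gene with LPS plus IFNγ in naïve cells (LPS against Ctrl) and in efferocytic cells (LPSEff against Eff), as the log2 fold change with its 95% interval from limma, 2 libraries per group. Filled points passed an adjusted p of 0.05. All points lie to the right of 0, and Osm in efferocytic cells is the open point, with an interval from -0.25 to 2.03.

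The next question was how these genes differed after the co-culture alone, with the dimerizer present. In unstimulated cells, 0 of the 10 members were called between Eff and Ctrl by limma, against 0.251% of all genes called in either direction. With the replicate number as a block, limma called 2 members, Il12b lower and Osm higher, and 2.67% of all genes. At an unadjusted p under 0.05 there were 4 members (Il6, Il12a, Il12b and Il10ra), edgeR called 0 and DESeq2 called 1, Il12b. The groups did not overlap for 4 genes that were higher in Eff (Il6, Il12a, Il27 and Osm), where 16.3% of all genes had that order, and for 3 that were lower (Il12b, Ebi3 and Il10ra), where 17.8% did.

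The largest of these differences was that of Il12b, at 110 and 180 normalized counts in Ctrl against 33.3 and 69.2 in Eff. Its log2 fold change was -1.53 (95% interval -2.52 to -0.54, adjusted p = 0.390, with the block 0.000531), and DESeq2 on the recovered reads gave -1.52 with an adjusted p of 0.0141. Il10ra was at 1163 and 1308 in Ctrl against 719 and 793 in Eff, a log2 fold change of -0.71 (95% interval -1.27 to -0.15, adjusted p = 0.588). Osm differed the other way, with 457 and 278 normalized counts in Ctrl and 1002 and 457 in Eff (0.92, 95% interval -0.21 to 2.06, adjusted p = 0.953, with the block 0.0263). Il6 differed by 0.58 (95% interval 0.02 to 1.14, adjusted p = 0.782) at levels of at most 24.0 normalized counts in all 4 libraries. Il10 was at 1 read in the first and 0 in the second library of both groups, and Il12a at 0 and 0 reads in Ctrl against 4 and 1 in Eff, so that no fold is given. Il23a, Il27, Ebi3 and Lif had intervals that included 0, with log2 fold changes of -0.48, 0.24, -0.31 and 0.47.

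Between stimulated cells, the difference that goes with prior efferocytosis was estimated below 0 for 8 of the 10 genes. It was above 0 for Il10 and Lif. Whether a member was called depended on the replicate block and on the tool. Limma called no member without the block. With it limma called 4, Il10 higher and Il12b, Il27 and Il10ra lower, against 6.97% of all genes called in either direction. The median of the members was -0.56 on the log2 scale against -0.00253 over all genes. Without the block, limma and edgeR called 0 members and DESeq2 called 2, both lower (Il12b and Il10ra), while 0.773% of all genes were called in either direction by limma. At an unadjusted p under 0.05 there were 6 members: Il10, Il12a, Il12b, Il27, Ebi3 and Il10ra. Il10 was the only member higher in both LPSEff libraries than in both LPS libraries (19.3% of all genes), and 5 members were lower in both (Il6, Il12a, Il12b, Ebi3 and Il10ra), an order held by 17.0% of all genes.

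Il10 was at 45.3 and 10.2 normalized counts in LPS and at 219 and 73.6 in LPSEff. The means were 27.7 ± 24.8 and 146 ± 102 (SD, n = 2), a ratio of 5.27, with log2 fold change 2.49 (95% interval 0.36 to 4.63, adjusted p = 0.396, with the block 0.0233). The difference was the same in sign for both library numbers, 4.83-fold between libraries 1 and 7.25-fold between libraries 2, but within each group library 1 was several times above library 2. Il19, an IL-10 family gene next to Il10 on chromosome 1, was at 9.05 and 0 normalized counts in LPS against 43.5 and 21.6 in LPSEff, and at most 1.75 in the unstimulated libraries, and was too low to be tested.

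Il12b had the opposite order. It was at 19966 and 29324 normalized counts in LPS and at 7089 and 13201 in LPSEff, with means of 24645 ± 6617 and 10145 ± 4322 (SD, n = 2). The log2 fold change was -1.32 (95% interval -2.31 to -0.33, adjusted p = 0.307, with the block 0.000668), and DESeq2 gave -1.30 with an adjusted p of 0.0210. Il12a was at 138 and 278 in LPS against 53.8 and 83.8 in LPSEff, a log2 fold change of -1.53 (95% interval -2.96 to -0.10, adjusted p = 0.446). Il23a, which pairs with the same beta chain, was at 230 and 141 in LPS and 116 and 212 in LPSEff, overlapped, and had a log2 fold change of -0.20 (95% interval -1.39 to 0.99). The dendritic cell markers had the same order as Il12b, since the 7 genes summed to 2165 and 2922 normalized counts in Ctrl against 1368 and 1768 in Eff, and to 8513 and 17213 in LPS against 6886 and 6905 in LPSEff. All 5 of them that could be tested (Ccr7, Dpp4, Flt3, Xcr1 and Zbtb46) lay below 0 in both Eff contrasts and limma, edgeR and DESeq2 called none without the block, with Ccr7 at an unadjusted p under 0.05 in both in limma and Flt3 in stimulated cells. With the block, limma called Dpp4 lower in unstimulated and Ccr7 and Flt3 lower in stimulated cells. The other 2 markers were too low to be tested. In the Ctrl libraries Cd209a had 2 and 14 reads and Clec9a 1 and 3, and in the Eff libraries 3 and 1 and 0 and 2. In the LPS libraries Cd209a had 1 read each and Clec9a 8 and 13, and in the LPSEff libraries 0 and 3 each. Their part in the Il12b values was not tested.

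Il27 was at 2166 and 1201 normalized counts in LPS and at 1202 and 716 in LPSEff, groups that overlap by a margin of less than 1 count, with a log2 fold change of -0.80 (95% interval -1.58 to -0.01, adjusted p = 0.480, with the block 0.0473). Ebi3, with its narrow spread, was at 498 and 519 against 359 and 316, a log2 fold change of -0.59 (95% interval -1.04 to -0.14, adjusted p = 0.318). Il6 was at 10573 and 8099.7 against 6706 and 6060.0, with means of 9337 ± 1749 and 6383 ± 457 (SD, n = 2) and a log2 fold change of -0.54 (95% interval -1.10 to 0.02, adjusted p = 0.513). Il10ra was at 2723 and 4511 against 1992 and 1957, a log2 fold change of -0.83 (95% interval -1.39 to -0.27, adjusted p = 0.241, with the block 0.0201), and DESeq2 gave -0.88 with an adjusted p of 0.0363. Lif and Osm overlapped between the groups, at 0.15 (95% interval -0.71 to 1.01) and -0.27 (95% interval -1.41 to 0.86) on the log2 scale. Their signs depended on the naïve stimulated libraries, since Lif was at -0.29 without LPS 2 and Osm at 0.36 without LPS 1.

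**Figure D3:**
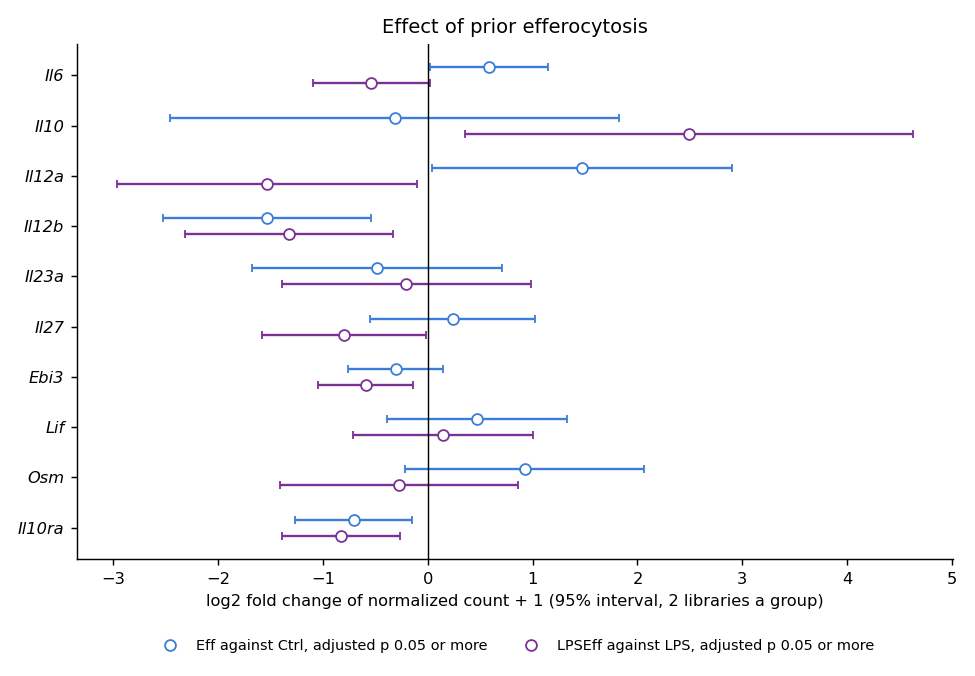
Difference that goes with prior efferocytosis in unstimulated cells (Eff against Ctrl) and in stimulated cells (LPSEff against LPS), as the log2 fold change with its 95% interval from limma before adjustment for multiple tests, 2 libraries per group. No point passed an adjusted p of 0.05 in this fit, which has no replicate block. Il12b, Il23a, Ebi3 and Il10ra lie below 0 in both comparisons, and Il10 and Lif lie above 0 in stimulated cells, at 2.49 and 0.15.

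Whether the stimulus acted differently in efferocytic and naïve cells was tested with the interaction. Without the block, no member passed in limma and 0.0% of all genes did. EdgeR and DESeq2 called 0 members as well, and 2 members had an unadjusted p under 0.05 in limma. These were Il6, whose estimated rise was the smaller in efferocytic cells (interaction -1.12, 95% interval -1.91 to -0.33, unadjusted p = 0.0114), and Il12a (-3.00, 95% interval -5.03 to -0.98, unadjusted p = 0.00892), for which the 5 reads in Eff against 0 in Ctrl enter the estimate. The interaction of Il10 was 2.81 (95% interval -0.21 to 5.83, unadjusted p = 0.0646), that of Il27 -1.04 (-2.15 to 0.07) and that of Osm -1.20 (-2.81 to 0.41). For Il12b it was 0.21 (-1.19 to 1.61), an interval that leaves room for a change in either direction. All 10 adjusted p-values of this limma fit were 1.00. With the block, limma called 0 members, and 5 had an unadjusted p under 0.05 (Il6, Il10, Il12a, Il27 and Osm). DESeq2 with the block called the interaction of Osm (adjusted p = 0.0493) and 29 of all 16309 genes. With 2 against 2 libraries an exact permutation test cannot go below p = 0.333, so that the p-values come from model fits that also use the spread across genes.

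Ratios between members within a library do not depend on its scaling. Il12b stood at 211 and 1380 times Il10 per kb in LPS 1 and 2, and at 15.5 and 85.7 times in LPSEff 1 and 2. Il6 stood at 126 and 431 times Il10 in LPS and at 16.6 and 44.5 times in LPSEff. Both ratios were lower in both efferocytic libraries than in either naïve library. The libraries of a group differed widely in both ratios, and the Il10 count of LPS 2 rests on 10 reads. By contrast, Il12b stood at 93.3 and 68.1 times Il12a in LPS and at 85.1 and 102 times in LPSEff, ranges that overlap. Il12b over Il23a was 71.0 and 170 in LPS and 50.2 and 51.0 in LPSEff. Il23a stood at 1.31 and 0.400 times Il12a in LPS and at 1.69 and 2.00 times in LPSEff, so that the IL-23 chain was above the IL-12 chain in both efferocytic libraries and in 1 of 2 naïve libraries. The ratio of Ebi3 to Il27 was 0.119 and 0.224 in LPS and 0.155 and 0.229 in LPSEff.

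**Figure D4:**
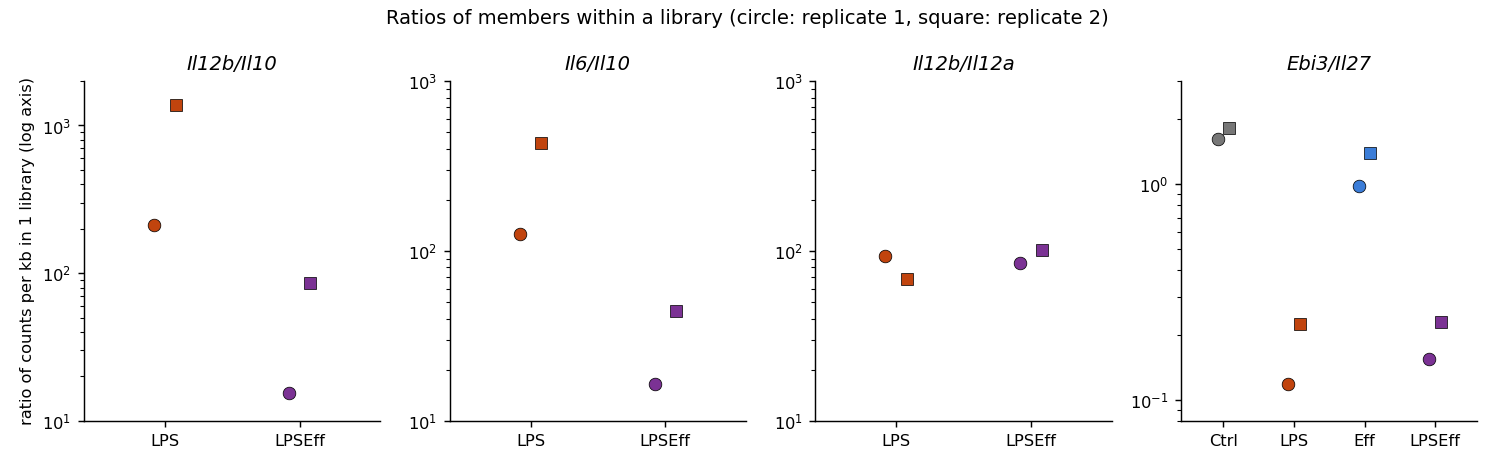
Ratios of normalized counts per kb of exon between 2 members of the same library on log axes, with 1 point per library. Il12b over Il10 and Il6 over Il10 are lower in both LPSEff libraries than in both LPS libraries, while Il12b over Il12a overlaps, between 68.1 and 102. Ebi3 over Il27 lies between 0.975 and 1.81 in the unstimulated libraries and between 0.119 and 0.229 in the stimulated libraries.

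The receptors of these cytokines moved in both directions with the stimulus. Of the 17 receptor chains listed besides Il10ra, 12 could be tested. In naïve cells 4 were called higher and 2 lower (6 and 2 with the replicate block), with a median change of 0.90. In efferocytic cells 5 were called higher and 1 lower, with a median of 0.87. Il6ra, the IL-6 binding chain, fell in both, from 508 and 526 normalized counts in Ctrl to 73.7 and 91.4 in LPS (log2 change -2.64 ± 0.31, adjusted p = 0.000751) and from 561 and 420 in Eff to 125 and 68.5 in LPSEff (-2.38, adjusted p = 0.00134). Il6st, the common chain gp130, was between 640 and 1835 normalized counts in all libraries and was not called in any contrast. Lifr fell in naïve cells, from 85.7 and 167 to 45.3 and 44.7 normalized counts (-1.39, adjusted p = 0.0256), and was at 79.7 and 104 in Eff and 91.0 and 64.7 in LPSEff (-0.25, adjusted p = 0.699).

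The receptor chains of IL-12 and IL-23 rose with their ligands. Il12rb1, shared by both receptors, was at 38.1 and 35.3 normalized counts in Ctrl and 416 and 296 in LPS. In efferocytic cells it went from 131 and 53.6 to 678 and 336 normalized counts, and the log2 changes with the stimulus were 3.22 in naïve (adjusted p = 0.00193) and 2.50 in efferocytic cells (adjusted p = 0.0072). Il12rb2, which completes the IL-12 receptor, rose by 1.66 and 1.47 on the log2 scale, and Il23r, which completes the IL-23 receptor, by 3.16 and 3.14 from at most 15.6 normalized counts. Il20rb, a chain of the receptors for IL-19, IL-20 and IL-24, rose by 1.40 and 1.34. Il10rb, which completes the IL-10 receptor, was between 1027 and 1453 normalized counts in all libraries. It was not called in any contrast, nor were Il11ra1, Il27ra and, without the block, Cntfr, which was called higher in naïve cells with it. The other 5 chains (Il31ra, Il20ra, Il22ra1, Il22ra2 and Ifnlr1) were too low to be tested.

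Without the block, limma and edgeR called 0 of the 12 chains in either Eff contrast, and with it limma called Il12rb1 higher in unstimulated and Osmr higher in stimulated cells. At an unadjusted p under 0.05 in limma there were 2 in unstimulated cells (Il12rb1 and Osmr) and 1 in stimulated cells (Osmr), and DESeq2 called 0 and 1, the latter Osmr. Osmr, the OSM-specific chain and typical of fibroblasts, had the lowest adjusted p in stimulated cells, with 28.5 and 14.2 normalized counts in LPS and 131 and 136 in LPSEff (log2 change 2.67 ± 0.53, adjusted p = 0.0874). It was at 9.52 and 3.47 in Ctrl and 19.3 and 31.1 in Eff (1.89, adjusted p = 0.388), and rose with the stimulus in efferocytic cells (2.40, adjusted p = 0.0154). In naïve cells Osmr was also higher with the stimulus, at an unadjusted p under 0.05 in limma. That rise was not called by limma or edgeR without the block, and was called by DESeq2 and by limma with the block. The summed fibroblast markers had the same order over the Eff contrasts, though not each marker did, as given above. Naïve cells received no fibroblasts, yet 4 of the 14 markers tested were called higher there with the stimulus, and 8 with the block. The part of fibroblast RNA in Osmr was not tested. Of the 13 other ligands of the 3 families, Clcf1, a gp130 cytokine, was the only gene that could be tested. It was at 19.0 and 23.1 normalized counts in Ctrl and 131 and 104 in LPS, and at 47.3 and 60.7 in Eff and 203 and 185 in LPSEff. It was called higher with the stimulus in naïve (2.42, adjusted p = 0.000645) and efferocytic cells (1.83, adjusted p = 0.00267), and was not called in the Eff contrasts (1.31, adjusted p = 0.166, and 0.73, adjusted p = 0.393) except in unstimulated cells with the block.

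**Figure D5:**
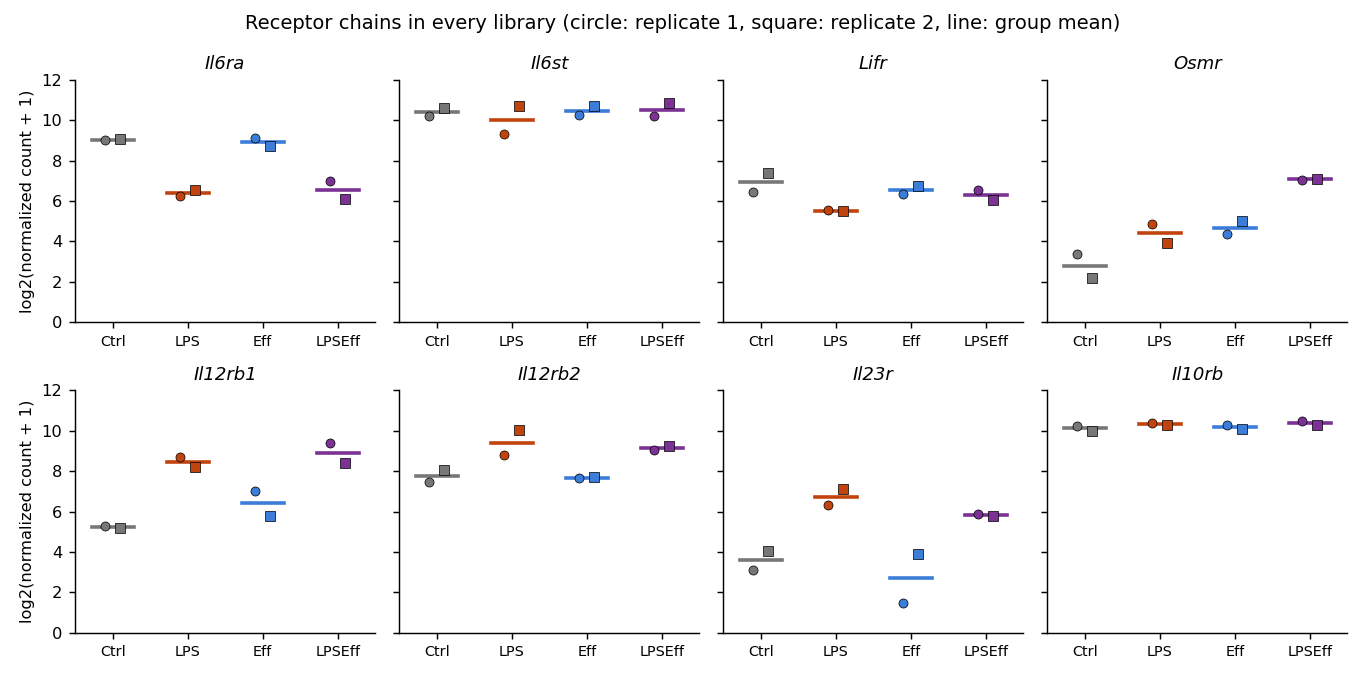
Level of 8 receptor chains in every library, as log2(normalized count + 1), with 2 libraries per group and a line at the mean of their log2 values. Il6ra is lower and Il12rb1, Il12rb2 and Il23r are higher in both stimulated groups, and Osmr is highest in both LPSEff libraries, at 131 and 136 normalized counts.

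Most of the signalling genes downstream of these receptors rose as well. Of 12 kinases, STATs and feedback genes, 11 were called higher with the stimulus in naïve cells (median 1.59) and 9 in efferocytic cells (median 1.60), and none was lower. With the replicate block, limma called 11 higher in each, beside 3337 and 3101 of all 16309 genes. Socs1, an inhibitor of Janus kinases, rose by 2.93 and 2.54 on the log2 scale, and Jak2, the kinase that IL-12 and IL-23 receptors use, by 2.45 and 2.75. Of 23 transcription regulators of cytokine genes, 14 were called higher and 1 lower in both naïve and efferocytic cells (medians 1.24 and 1.21). With the block they were 16 and 1 in both. Nfkbiz, the NF-κB cofactor needed for Il6 and Il12b, rose by 4.40 and 3.74, Irf1, a driver of Il12a and Il12b, by 3.64 and 4.16, and Nfkb2 by 2.74 and 3.08, while Fos fell by 1.39 and 2.14.

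Of 10 genes that control mRNA stability, 4 were called higher and 1 lower in naïve cells, and 3 and 1 in efferocytic cells. With the replicate block they were 6 and 1 in each. Zc3h12a, whose product regnase-1 degrades Il6 and Il12b mRNA, rose by 3.24 and 2.76 on the log2 scale. Arid5a, which stabilizes Il6 mRNA, rose by 2.06 and 1.81, and Zfp36l2, an AU-rich element binding decay factor, fell by 2.16 and 1.75. Of 8 genes known to respond to IL-10, 6 and 7 were called higher, and 7 in each with the block. Bcl3 rose by 2.50 and 2.34 and Socs3 by 2.08 and 1.97 in naïve and efferocytic cells, Nfil3 by 1.89 in naïve cells, and Ddit4 by 2.76 in efferocytic cells. Socs3, Bcl3 and Zfp36 also belong to other of these lists. In the Eff contrasts, without the block, limma and edgeR called 0 genes of the signalling, regulator, stability and IL-10 response lists. At an unadjusted p under 0.05 in limma there were 2, 6, 1 and 0 of them in unstimulated cells and 3, 4, 1 and 0 in stimulated cells. DESeq2 called Batf3 lower in both and Socs2 lower in stimulated cells. With the block, limma called Relb, Irf1 and Batf3 lower in unstimulated cells, and Socs2, Rel and Batf3 lower and Zfp36l2 higher in stimulated cells. Batf3, which dendritic cells that make IL-12 need, was at 162 and 119 normalized counts in Ctrl against 50.8 and 49.4 in Eff, and at 162 and 219 in LPS against 73.6 and 60.9 in LPSEff, with log2 changes of -1.45 (adjusted p = 0.112) and -1.48 (adjusted p = 0.0633) in limma. Between LPSEff and LPS the medians of the 4 lists were -0.09, -0.08, -0.08 and 0.12. The IL-10 response genes had a median of 0.12 on the log2 scale between LPSEff and LPS while Il10 itself differed by 2.49.

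The AU-rich pentamer AUUUA, which the decay factors of the ZFP36 family can bind, was counted in the annotated sequence after the stop codon. Il6, Il10, Il12a, Il12b, Il23a and Osm each held 6 pentamers, Lif 7 and Il27 5, against 3 in Il10ra and 1 in Ebi3. Among 12363 transcripts, the median was 2 and 26.0% held at least 5. The length searched differed, from 245 bases in Ebi3 to 3180 in Lif, with a median of 1362 over all transcripts. Per kb, the count was highest in Il27 (17.5), Il6 (14.1) and Il12a (12.1), against a median of 1.33, and lowest in Il10ra (1.77) and Lif (2.20). A longer AU-rich motif, the nonamer, gave another order, with 3 in Il10ra, 2 each in Lif and Il27 and 1 each in Il12a and Il23a. The other members held 0, and 9.15% of the transcripts held the nonamer.

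The members lie on 8 chromosomes, with Lif and Osm adjacent on chromosome 11 at a distance of 16531 bases and Il12b elsewhere on the same chromosome (44290808 to 44305505 in GRCm39). Of the 54 nearest protein-coding neighbours, 37 could be tested, and 7 were called higher and 3 lower with the stimulus in naïve cells, beside 12.4% of all genes called higher and 11.6% called lower. Stat2, an interferon signalling gene 3273 bases from Il23a, rose by 2.63 on the log2 scale (adjusted p = 5.39e-05). Mapkapk2, the p38 target kinase beside Il10, rose by 1.46 (adjusted p = 0.00799), from 2049 and 2059 normalized counts in Ctrl to 6974 and 4574 in LPS. The largest rises were near Il12a, in 1110032F04Rik (4.29), Iqschfp (3.73) and Schip1 (3.06). Dnajb6 near Il6 rose by 1.37 and Rnf145 near Il12b by 1.14. The 3 called lower were Dyrk3 (-3.21) and Eif2d (-0.94) near Il10 and Sf3a1 (-0.66) near Osm.

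The genes whose profile over the 8 libraries was most like that of a member were found by Pearson's r of log2(normalized count + 1), a description in which stimulation separates the libraries. For Il6 they were Pnp (r = 0.998), Daxx (0.997) and Il1b (0.997), the last of which went from 109 and 74.0 normalized counts in Ctrl to 49516 and 30115 in LPS and 37496 and 35413 in LPSEff. For Il12b they were Trim21, Psme1 and Lmo4 (0.998 to 0.997), for Il12a Dusp5, Nr4a2 and Chi3l1 (0.994 to 0.993), and for Il27 Zfp811, Tnfaip3 and Triobp (0.995 to 0.994). For Ebi3 they were Zhx2, Peli1 and Traf1 (0.995 to 0.995), for Lif 4933416M07Rik, Ell2 and 1110038F14Rik (0.997 to 0.995), and for Il23a Wfdc8, Nab1 and Gbp2-ps (0.996 to 0.994). Il10 was most like Gm15655, Tmem192 and Zcchc2 (0.994 to 0.989). Zcchc2 was at 901 and 759 normalized counts in LPS and at 1226 and 920 in LPSEff. Il10ra was most like Inpp5b, Oprd1 and Car2 (0.994 to 0.991), and Osm most like Wfdc21, D030034A15Rik and Shank1 (0.988 to 0.978).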

How the data were processed

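RNA of 8 BMDM libraries (4 groups, 2 each) was sequenced in total after rRNA depletion. Per the labels and methods, the authors used cutadapt for adapters, bowtie2 to discard rRNA, STAR for alignment to mm39 and htseq-count for counting. Tool versions and the annotation release are not given in the sources used here. The deposited values are a signal, the DESeq2-normalized count: reads divided by a size factor. In each library, 100% of them were whole multiples of the smallest nonzero value (within 0.01 reads), from which reads were recovered. Names and positions came from GENCODE on GRCm39, matching 54749 identifiers.

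Limma 3.58.1 (R 4.3.3) with a trend was fitted on log2(normalized count + 1) with 4 group means and 4 residual degrees of freedom, requiring a mean of 10 or more. P-values were Benjamini-Hochberg adjusted over all 16309 genes and called under 0.05. EdgeR 4.0.16 (TMM) and DESeq2 1.42.0 ran on recovered reads. Alternatives varied the pseudocount, filter, scaling, samples in the fit, the replicate block and each library in turn. Libraries of the same replicate number deviated together from their group means (r across genes from 0.404 to 0.595 over 6 pairs of groups), although the labels do not say what the number marks. Block values therefore stand beside the calls of members that they change, and beside other calls where stated. Count tests with the block were added after seeing the data. The tests were checked on simulated counts.

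The members and gene lists were chosen with earlier results of these data known. Genes named are the members, the tested receptor chains, up to 3 called genes of each other list per contrast by absolute fold change, the 3 genes most like each member and the 3 protein-coding neighbours on each side. Of the genes this rule covers, 1 is not reported here. Il19, Fos, Batf3, Socs2, Relb, Rel and the marker genes were named after their values were seen. Intervals and floors from reads cover counting error only.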

Additional observations from a re-analysis of the deposited data

Results flagged for a closer look

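For Il6, Il12a, Il27 and Osm, prior efferocytosis went with opposite differences in unstimulated and stimulated cells. The former are from Eff against Ctrl and the latter from LPSEff against LPS, on the log2 scale. Il10 also had opposite signs, at -0.32 and 2.49, the former from 1 read in each group. Its interaction is given above. Il6 was at 0.58 and -0.54, Il12a at 1.47 and -1.53, Il27 at 0.24 and -0.80, and Osm at 0.92 and -0.27. The difference of Il12a before stimulation rests on 5 reads in Eff against 0 in Ctrl. Osm lost this pattern without LPS 1, where its second value was 0.36. The difference between both values is the interaction, which limma tested for each gene. It had an unadjusted p of 0.0114 for Il6, 0.00892 for Il12a, 0.0638 for Il27 and 0.125 for Osm, and none passed after adjustment (adjusted p = 1.00 for each). With the replicate block, limma called none of them and DESeq2 called that of Osm (adjusted p = 0.0493).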

How the results depend on the processing

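With 2 libraries a group, and 1 to 10 reads behind several Il10 and Il12a values, folds of these 2 genes moved most with the pseudocount and tool. Of 985 member fold changes under 20 other settings, 949 kept their side of the threshold without being counted as reversed. Another 28 passed it in addition and 5 lost it (Il10 and Osm in LPS against Ctrl). The remaining 3 reversed by more than the standard error of the main fit, none of them called. They were Lif (-0.29 without LPS 2, up to 0.58 without LPS 1) and Osm (0.36 without LPS 1, down to -0.91 without LPS 2) in LPSEff against LPS, and the interaction of Il10ra (0.24 without LPS 2, down to -0.48 without LPS 1). Of the 949, 16 uncalled values near 0 changed sign by no more than that error. Il10 could not be tested with a mean of at least 50, and the interaction could not be fitted with only some groups. Where a library was left out, the lone library of that group was assumed to vary like the other groups. Leaving out a library left 8 to 10 members called in LPS against Ctrl. Rescaling to equal totals moved the median of all genes to -0.41 in LPS against Ctrl and -0.44 in LPSEff against Eff, and members called stayed at 10 and 9.

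The number of members called in Eff against Ctrl was 0 in limma and 1 with DESeq2, and in LPSEff against LPS 0 and 2. With the replicate block, limma called 2 members in Eff against Ctrl (Osm higher, Il12b lower) and 4 in LPSEff against LPS (Il10 higher; Il12b, Il27 and Il10ra lower), edgeR 2 and 6, and DESeq2 3 and 4. Osm in LPSEff against Eff passed with the block in all 3 tools, no other call of a member changed with it in limma, and DESeq2 with the block called 1 interaction, that of Osm. Over all genes, the block raised calls from 41 to 436 in Eff against Ctrl and from 126 to 1137 in LPSEff against LPS.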
